A study of Mus musculus with 4 samples.

Results

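The cells described here are CD8 T cells from anti-PD-1 treated tumours that carried transcripts of the G1/S transition and none of 3 mitotic genes. Transcripts of other G2/M genes were found in them and are described below. They were chosen by detection: UMIs (unique molecular identifiers, each standing for 1 captured transcript) of Cd8a and Cd8b1, none of Cd4 or Foxp3, UMIs of at least 3 of the 6 genes Mcm3, Mcm5, Mcm6, Cdc6, E2f1 and Ung, and none of Ccnb1, Ccnb2 or Cdc20. This left 708 cells of the 7347 CD8-gated cells of the anti-PD-1 library and of the 13213 cells of the series. They made up 9.64% of the CD8-gated cells (95% Clopper-Pearson interval 8.97% to 10.3%). Of the 1740 CD8-gated cells with at least 3 of the G1/S genes, the other 1032 were set aside because they held at least 1 of the mitotic genes. The reference was the 1775 CD8-gated cells of the same library with those 9 genes and Mki67 at 0, called resting here for how they were chosen. Only 946 of them also lacked Pcna, Top2a and Rrm2, so the reference is not free of cell cycle transcripts. Against those 946 cells, 977 genes were at least 1.5-fold higher in G1/S cells and 570 lower.

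The study treated C57BL/6 mice bearing orthotopic tumours derived from MC38, a mouse colon carcinoma line, and took the tumours 2 weeks after the first treatment. The 4 arms were vehicle (entered as no treatment in the sample record), anti-PD-1 antibody given 3 times a week for 5 doses in total, ATT-I (atractylenolide I, a plant-derived small molecule) at 50 mg/kg daily, and both agents together. Each arm is 1 droplet library of 10x Genomics type made from 5 pooled tumours, so the cells of an arm cannot be traced to a tumour. Since there is 1 library per arm, cells are not replicates and no p-value is given; intervals cover counting error only.

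A resting T cell that is triggered leaves quiescence, and D-type cyclins with Cdk4 and Cdk6 start to release E2F transcription factors from the retinoblastoma family. E2F factors then turn on cyclin E, the MCM helicase, and the enzymes that make nucleotides and copy DNA, while mitotic genes are switched on later through other promoter elements. In tumours, CD8 T cells that see antigen persistently can divide while they carry inhibitory receptors such as PD-1, and proliferation of such cells is a known feature of the response to PD-1 blockade.

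Depth differed between the sets and is given before the results, because a gate made of detected genes favours deep cells. The 708 G1/S cells had a median of 11736.5 UMIs per cell, against 6017 in the resting cells and 7883 in all CD8-gated cells. Gene and list ratios against resting cells within the anti-PD-1 library were therefore repeated on cells of 8000 to 12000 UMIs only, which left 270 G1/S cells (median 10366.5 UMIs) and 314 resting cells (median 9093.5). T cell markers were present: Cd3e, Cd3d, Cd3g, Trac and Cd2 summed to 46.3 UMIs per 10000 in the G1/S cells and 61.4 in the resting cells. Marker lists of monocytes or macrophages, dendritic cells, B cells, tumour epithelium, fibroblasts and erythroid cells each summed to between 0.113 and 0.523 UMIs per 10000 in the G1/S cells, with Cd79a, Flt3, Clec9a and Krt19 at 0, and the 1 measured neutrophil gene was at 0. The same 6 lists summed to between 0.23 and 1.13 in the resting cells. Other members of these lists had a UMI in many cells, at unlike depths of the sets. Ighm was found in 33.2% of G1/S and 23.1% of resting cells, and Hbb-bs in 31.1% and 29.7%. Cd74 was found in 17.7% and 13.2%, Apoe in 10.2% and 7.21% and Epcam in 9.75% and 4.68%. NK markers, which activated CD8 cells also carry in part, summed to 4.21 and 4.73, and gamma-delta T cell markers to 1.68 and 1.67. Across the 4 libraries 1 cell barcode occurred more than once.

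Replication genes that the rule did not use had higher levels with each further G1/S gene detected from 2 to 6. A level here is the summed UMIs of a gene or list over a set of cells per 10000 summed UMIs of that set. Just outside the threshold, the 531 cells with 2 of the 6 genes and no mitotic gene had replication fork genes at a summed level of 11.0, and just inside it the 291 cells with 3 genes had 20.3. The level was 8.06 in cells with none of the 6 and 41.3 in the 63 cells with all 6. Mcm2, a helicase subunit that the rule did not use, was at 0.327 with 2 genes, 0.835 with 3 and 1.52 with 6. Rrm2, the small subunit of ribonucleotide reductase, was at 0.164, 0.258 and 1.56 in the same cells, so most of its gain lay above 3 genes. Replication-dependent histones moved less, from 6.00 with 2 genes to 7.11 with 3 and 9.83 with 6. Median depth climbed alongside, from 7975 UMIs per cell with 2 genes to 9954 with 3 and 13896 with 6, and its part in this gradient was not tested.

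**Figure D1:**
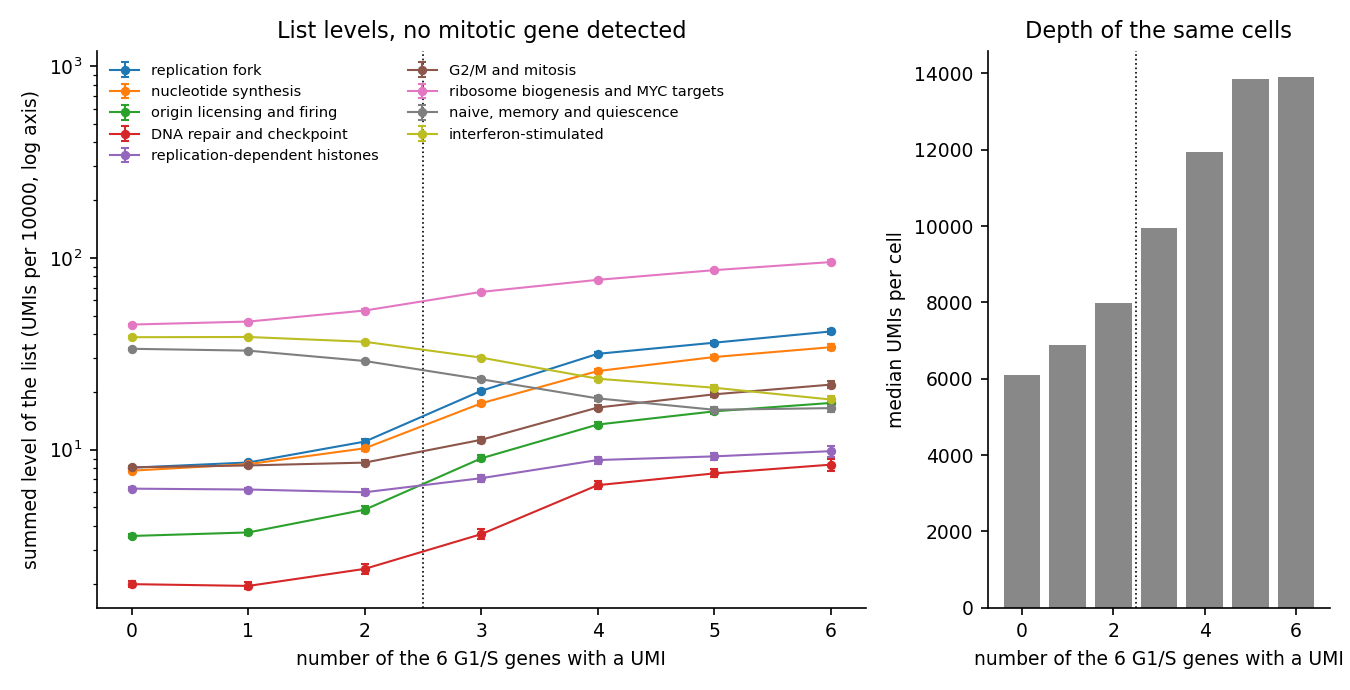
Left, summed level of 9 gene lists (UMIs per 10000, log axis, 95% Poisson intervals) in CD8-gated anti-PD-1 cells without a UMI of Ccnb1, Ccnb2 or Cdc20, by how many of the 6 G1/S genes had a UMI; the dotted line is the threshold of the rule. Right, median UMIs per cell of the same cells; replication lists and depth both stand higher to the right of the line, while the quiescence and interferon lists stand lower.

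Against resting cells, the G1/S cells had higher levels of nearly the whole replication machinery, of DNA repair genes and of ribosome biogenesis genes. Over all cells, genes of quiescence, of the AP-1 family and of the interferon response had lower levels, the last of these not in cells of 8000 to 12000 UMIs. Of 7083 genes with a UMI in at least 10% of the cells of either set, 944 (13.3%) were at least 1.5-fold higher and 492 (6.95%) at least 1.5-fold lower. A gene could pass this filter through either set alone, and the G1/S cells were the deeper set. The filter can thus favour higher genes in this count and in the counts by list below. The genes of the rule are left out of these counts, since their difference was fixed by the choice of cells. In cells of 8000 to 12000 UMIs, 858 of 6891 genes (12.5%) were at least 1.5-fold higher and 346 (5.02%) at least 1.5-fold lower. Of the 944 higher genes, 852 could be compared there and 615 were again at least 1.5-fold higher. Of the 492 lower genes, 489 could be compared and 154 were again at least 1.5-fold lower. The sign was kept by 846 of the 852 and 448 of the 489. Ratios here are relative to the cell's total: in mean UMIs per cell without scaling, the median gene was 0.97 higher on the log2 scale in the G1/S cells, 5920 genes were at least 1.5-fold higher and 5 lower, and lower genes below are lower relative to that shift.

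**Figure D2:**
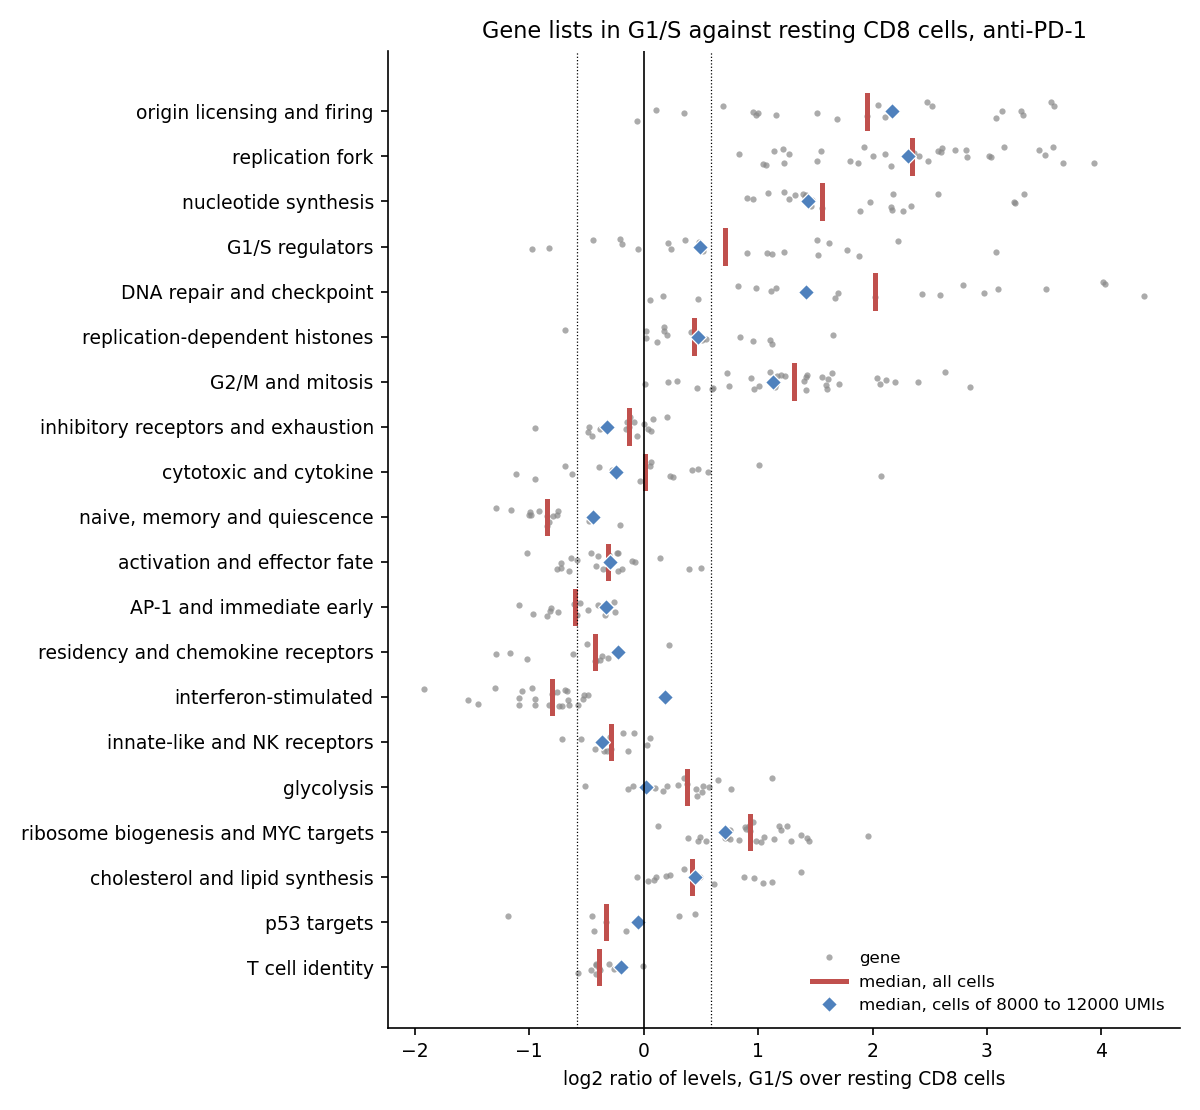
Log2 ratio of levels, G1/S over resting CD8 cells of the anti-PD-1 library; each grey point is a gene of the list with a UMI in at least 10% of either set, the red bar is the list's median over all cells and the blue diamond its median in cells of 8000 to 12000 UMIs, with dotted lines at 1.5-fold. The replication fork list lies wholly right of the 1.5-fold line, and the median of the interferon list stands at -0.80 over all cells and at 0.18 in the depth window.

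Licensing loads the MCM helicase onto origins in G1, and firing activates it in S phase. Of 21 measured genes of this list outside the rule, 18 were at least 1.5-fold higher and none lower, with a median log2 ratio of 1.95, and of 2.17 in the depth window. The other MCM subunits were all higher: Mcm2 had a level of 1.2 in G1/S cells against 0.136 in resting cells (log2 ratio 3.14, 95% interval 2.89 to 3.39), Mcm4 a log2 ratio of 2.47 (2.28 to 2.67) and Mcm7 one of 3.08 (2.88 to 3.29). Gins2, a subunit of the GINS complex of the active helicase, was at 0.704 against 0.0587 (3.58, 3.21 to 3.97). Mcm10, a firing factor, was at 0.147 against 0.0125 (3.56, 2.76 to 4.47), and Cdc45, the third partner of the active helicase, had a log2 ratio of 3.30 (2.87 to 3.75). The licensing factor Cdt1 and its inhibitor geminin, Gmnn, which normally take turns in the cycle, were both higher, at log2 ratios of 1.52 (1.23 to 1.81) and 2.05 (1.89 to 2.21). Among subunits of the origin recognition complex, Orc6 was higher at 2.52 (2.31 to 2.74), whereas Orc3 at 0.11 (-0.16 to 0.38) and Orc4 at -0.06 (-0.29 to 0.17) had intervals that span 0. Dbf4, the activating subunit of the Cdc7 kinase, was at 0.36 (0.12 to 0.59) while Cdc7 itself was at 1.69 (1.33 to 2.06).

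At the replication fork, all 34 measured genes were at least 1.5-fold higher, with a median log2 ratio of 2.35, and the count was again 34 of 34 in the depth window with a median of 2.31. Dscc1, a loader of the sliding clamp, was at a level of 0.272 against 0.0178 (log2 ratio 3.93, 3.27 to 4.67). Timeless, of the fork protection complex, was at 0.383 against 0.0303 (3.66, 3.15 to 4.22), and its partner Tipin at 1.99 against 0.335 (2.57, 2.41 to 2.74). The catalytic subunits of the replicative polymerases were higher: Pola1 at a log2 ratio of 2.82 (2.47 to 3.19), Pold1 at 2.32 (2.0 to 2.65) and Pole at 3.57 (2.96 to 4.25). Pcna, the sliding clamp, was at 1.12 against 0.321 (1.81, 1.63 to 1.99), and 1.34 (1.02 to 1.67) in the depth window. Lig1, which joins Okazaki fragments, was at 2.07 against 0.252 (3.04, 2.85 to 3.22). At the low end stood Rpa2, of the single-strand binding complex, at 0.83 (0.72 to 0.95) and the polymerase subunit Pole3 at 1.04 (0.81 to 1.28), both higher in G1/S cells as well. The maintenance methylation pair Dnmt1 and Uhrf1, which copies DNA methylation onto new strands, was at 2.0 (1.83 to 2.18) and 3.02 (2.66 to 3.39).

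Nucleotide synthesis genes followed: 23 of 23 were at least 1.5-fold higher, with a median of 1.56, and 22 of 22 in the depth window with a median of 1.44. Tk1, thymidine kinase, was at a level of 1.05 against 0.104 (log2 ratio 3.33, 3.05 to 3.62). Tyms, thymidylate synthase, was at a log2 ratio of 2.18 (2.0 to 2.36) and Shmt1, a folate cycle enzyme, at 3.24 (2.70 to 3.83). The ribonucleotide reductase subunits differed little in ratio, with Rrm1 at 2.17 (1.95 to 2.38) and Rrm2 at 2.57 (2.32 to 2.84). Of de novo purine enzymes, Paics was at 0.95 (0.81 to 1.10), Atic at 1.23 (1.01 to 1.45), Gart at 1.42 (1.18 to 1.66) and Ppat, which commits the pathway, at 1.56 (1.33 to 1.79). Those values lay at or below the list's median. Of pyrimidine enzymes, Cad at 1.32 and Umps at 1.46 lay in the same range and Ctps at 2.16 above it. Mthfd2, the mitochondrial folate enzyme, was lowest of the list at 0.91 (0.72 to 1.10).

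The regulators of the transition split by role. Of 22 measured, 11 were at least 1.5-fold higher and 2 lower, with a median of 0.71 (0.49 in the depth window, where 10 were higher and 1 lower). Cyclin E and its kinase were higher: Ccne2 was at a level of 0.143 against 0.0169 (log2 ratio 3.08, 2.38 to 3.86), Ccne1 at 0.292 against 0.0952 (1.62, 1.29 to 1.96) and Cdk2 at 0.236 against 0.0507 (2.22, 1.79 to 2.67). D cyclins, which act earlier, were not: Ccnd2 was at 1.61 against 2.19 (-0.44, -0.53 to -0.34) and Ccnd3 at 1.60 against 1.85 (-0.21, -0.30 to -0.11), and in the depth window they were at -0.03 (-0.21 to 0.15) and 0.12 (-0.07 to 0.30). Their kinase Cdk4 was higher at 1.23 (1.10 to 1.35), while Cdk6 was at 0.36 (0.26 to 0.46) and, in the depth window, at -0.08 (-0.27 to 0.10).

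Among E2F partners, Tfdp1, the dimerization partner of E2F proteins, was higher at 1.78 (1.59 to 1.98) and E2f2 at 1.51 (1.02 to 2.02). E2f4, which is best known as a repressor in resting cells, was at 0.24 (0.06 to 0.42). Of the pocket proteins, Rbl1 (p107), an E2F target itself, was at 1.08 (0.77 to 1.39), and Rb1 at 0.22 (-0.09 to 0.52) and Rbl2 (p130) at -0.05 (-0.22 to 0.13) had intervals that span 0. The inhibitors of cyclin-dependent kinases did not move as a group. Cdkn1b (p27), which holds resting lymphocytes in G0, was at 0.772 against 1.37 (-0.83, -0.96 to -0.70) and at -0.41 (-0.65 to -0.17) in the depth window. Cdkn2d (p19) was at 0.402 against 0.789 (-0.97, -1.16 to -0.79), with a like -0.94 in the depth window. Cdkn1a (p21) was at 0.214 against 0.149 (0.52, 0.21 to 0.83), Cdkn2a at 1.12 (0.75 to 1.5) and Cdkn2c (p18) at -0.19 (-0.41 to 0.03). Myc, the growth factor-induced transcription factor, was at 0.396 against 0.283 (0.49, 0.26 to 0.71).

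**Figure D3:**
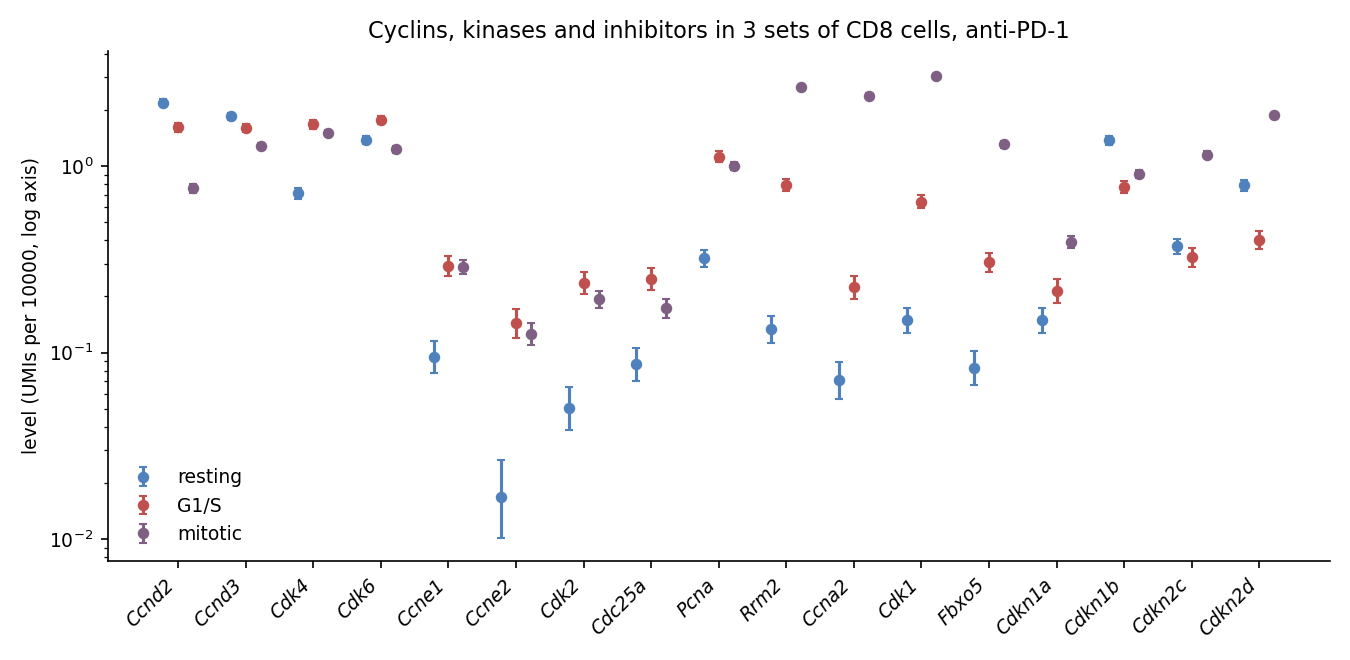
Levels (UMIs per 10000, log axis, 95% Poisson intervals) of 17 cell cycle genes in resting, G1/S and mitotic CD8 cells of the anti-PD-1 library. Ccne1, Ccne2, Cdk2 and Pcna stand less than 1.5-fold apart in G1/S and mitotic cells and above resting cells, whereas Ccna2, Cdk1, Rrm2 and Fbxo5 step up again from G1/S to mitotic cells and Cdkn1b and Cdkn2d are lowest in G1/S cells.

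DNA repair and checkpoint genes had a median log2 ratio of 2.02 and 16 of 19 were at least 1.5-fold higher (1.42 and 13 of 16 in the depth window). Chek1, the kinase that restrains S phase when forks stall, was at a level of 0.276 against 0.0133 (4.37, 3.62 to 5.23). Rad54l, of homologous recombination, was at 4.03 (3.11 to 5.13), and Brca1 and Brca2 at 3.10 (2.46 to 3.80) and 2.79 (2.33 to 3.27). Atr, the upstream kinase of Chek1, was at 0.05 (-0.25 to 0.35) and its partner Atrip at 0.17 (-0.25 to 0.59). The end-joining pair Xrcc5 and Xrcc6 was at 0.47 (0.19 to 0.75) and 0.98 (0.70 to 1.27).

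Promoters were read because so many genes of these lists differed together. The letters searched, on either strand, were the E2F forms TTTGGCGC, TTTCGCGC, TTTCCCGC and TTTGCCGC and, for the later genes, the CHR forms TTTGAA and TTCGAA and CCAAT. Windows ran from 250 bases before to 50 after each RefSeq start (build GRCm38.p6, the mm10 assembly named for the files), and 5620 of the 7083 genes had at least 1. An E2F form occurred in 12.1% of the windows of the 944 higher genes, 1.19% of those of the 492 lower genes, 4.52% of those of all genes compared and 2.26% of all RefSeq windows. By list it occurred in 33.3% of the windows of licensing genes, 30.0% of those of G1/S regulators, 27.0% of those of fork genes and 4.35% of those of nucleotide synthesis genes. A CHR form, which is short and common, was in 79.5% of the windows of G2/M genes and 19.2% of all windows. The 250 bases before the start are shown for 3 genes with E2F letters (Mcm5 and Mcm6 of the rule, and Cdca7, which the rule did not use) and for 2 G2/M genes with CHR letters (Cdk1 and Top2a). They were chosen because they hold a match, and capitals mark the matched letters, E2F forms in the first 3 and CHR forms in the others, while CCAAT is left in lower case.

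Mcm5, chr8:75109259-75109508, plus strand: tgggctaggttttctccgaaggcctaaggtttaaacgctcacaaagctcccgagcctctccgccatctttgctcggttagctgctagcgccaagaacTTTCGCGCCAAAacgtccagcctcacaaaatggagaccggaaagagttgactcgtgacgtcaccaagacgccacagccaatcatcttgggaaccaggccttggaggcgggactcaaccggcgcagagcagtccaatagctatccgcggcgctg
Mcm6, chr1:128359706-128359955, minus strand: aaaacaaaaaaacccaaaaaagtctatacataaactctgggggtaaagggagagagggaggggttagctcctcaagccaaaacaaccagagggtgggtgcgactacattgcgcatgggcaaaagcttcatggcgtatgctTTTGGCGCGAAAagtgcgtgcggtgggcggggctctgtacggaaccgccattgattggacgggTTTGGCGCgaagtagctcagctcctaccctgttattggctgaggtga
Cdca7, chr2:72475969-72476218, plus strand: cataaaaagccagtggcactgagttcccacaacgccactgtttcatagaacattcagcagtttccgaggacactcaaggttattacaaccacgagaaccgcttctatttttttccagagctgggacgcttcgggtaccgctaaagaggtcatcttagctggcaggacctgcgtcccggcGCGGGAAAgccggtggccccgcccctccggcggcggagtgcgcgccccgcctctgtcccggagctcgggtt
Cdk1, chr10:69352913-69353162, minus strand: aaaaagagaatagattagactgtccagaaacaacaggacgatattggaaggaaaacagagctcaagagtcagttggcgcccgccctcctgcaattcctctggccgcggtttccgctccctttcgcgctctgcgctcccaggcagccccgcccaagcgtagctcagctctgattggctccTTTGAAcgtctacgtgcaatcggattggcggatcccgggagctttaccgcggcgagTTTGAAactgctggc
Top2a, chr11:99024190-99024439, minus strand: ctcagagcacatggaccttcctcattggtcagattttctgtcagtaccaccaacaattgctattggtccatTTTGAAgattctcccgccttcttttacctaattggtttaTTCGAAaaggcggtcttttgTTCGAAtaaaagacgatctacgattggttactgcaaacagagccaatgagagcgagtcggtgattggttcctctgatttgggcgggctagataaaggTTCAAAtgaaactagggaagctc

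In Mcm5, TTTCGCGC and the reverse-strand form GCGCCAAA overlap between 153 and 142 bases before the start. Mcm6 holds such an overlapping pair between 110 and 99 bases before its start and TTTGGCGC again from 47 to 40. Cdca7 holds GCGGGAAA from 71 to 64 bases before its start. Cdk1 holds TTTGAA from 71 to 66 and from 15 to 10 bases before its start, and Top2a holds 4 CHR forms. Cdk1 also holds the E2F form TTTCGCGC, left in lower case. A match is a description of the letters and not evidence of binding, and no match in a window says nothing of other stretches: Chek1, Tk1, Timeless and Rrm2 held no E2F form in theirs.

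Histones and mitotic genes differed less than the replication genes. The rule asked for UMIs of G1/S genes and set aside the 1032 cells with a UMI of Ccnb1, Ccnb2 or Cdc20. The order of replication and mitotic genes therefore follows in part from the choice of cells. Replication-dependent histones, which package new DNA in S phase and most of whose mRNAs end in a stem-loop in place of a poly(A) tail, had 16 measured members, of which 5 were at least 1.5-fold higher and 1 lower (median log2 ratio 0.44, and 0.47 in the depth window). The linker histone Hist1h1b was at 1.14 against 0.36 (1.66, 1.49 to 1.83) and Hist1h2ap at 1.22 against 0.561 (1.12, 0.98 to 1.26), whereas Hist1h4i was at 0.02 (-0.25 to 0.29). Hist1h1c, a linker histone also made outside S phase, was at 0.564 against 0.909 (-0.69, -0.85 to -0.53) and at -0.12 (-0.41 to 0.17) in the depth window. Several histone copies are near identical, and the counts could be split between them.

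Of 34 measured G2/M genes outside the rule, 30 were at least 1.5-fold higher than in resting cells, with a median of 1.32 (24 of 31 and 1.13 in the depth window). Spc24, of the kinetochore, was at 0.628 against 0.101 (2.63, 2.34 to 2.93), Pbk, a mitotic kinase, at 2.85 (2.2 to 3.56), and Top2a, which untangles DNA, at 1.85 against 0.626 (1.56, 1.43 to 1.69). Cdk1 was at 0.645 against 0.149 (2.12, 1.87 to 2.38) and Ccna2, cyclin A, at 0.223 against 0.0712 (1.65, 1.27 to 2.04). Ube2c, of the anaphase-promoting pathway, was at 0.376 against 0.373 (0.01, -0.20 to 0.22), and Cenpa, the centromeric histone, at 0.21 (0.10 to 0.32) and at -0.34 (-0.54 to -0.15) in the depth window.

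Mki67, which encodes the antigen Ki-67 and which the rule did not use for these cells, divided them. It had a UMI in 308 of the 708 cells (43.5%). Those 308 cells, against the other 400, had higher levels of histones (15 of 19 at least 1.5-fold higher, median log2 ratio 1.24), of G2/M genes (38 of 42, median 1.45) and of repair genes (16 of 24, median 0.85), against a background of 409 of 7465 genes (5.48%) higher, 106 (1.42%) lower and 6.90% in either direction. Licensing and fork genes differed less, with medians of 0.59 and 0.58. Rrm2 was 2.23 higher on the log2 scale with Mki67 and Ccna2 2.64 higher, whereas Mcm2 was at 0.27 and Mcm5, of the rule, at 0.20. Median depth was 12774 and 11035.5 UMIs. In cells of 8000 to 12000 UMIs (93 and 177 cells, medians 10267 and 10384) the medians were 1.31 for histones, 1.22 for G2/M genes and 0.38 for licensing genes, beside 11.0% of all genes higher and 5.47% lower, and Rrm2 was at 0.891 against 0.198 (2.17, 1.59 to 2.77). Without the Mki67 cells, 676 of the 944 higher genes were still at least 1.5-fold above resting cells. Hist1h2ap, Ccna2, Birc5, Cenpf, Nusap1 and Cdca3 were no longer higher, at log2 ratios between -0.41 and -0.03, for which no interval was computed. Both sets then lacked Mki67 by the choice of cells.

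Outside the lists, the 10 genes with the highest ratios to resting cells lay between 3.07 and 3.97 on the log2 scale. Brip1, a helicase that works with Brca1, was at 0.181 against 0.0116 (3.97, 3.15 to 4.91). Cenps and Cenph, of the inner kinetochore, were at 3.80 (3.26 to 4.39) and 3.38 (2.93 to 3.86), and Cdca7, a chromatin factor that works with Hells in DNA methylation, was at 0.638 against 0.0507 (3.65, 3.26 to 4.07). Pclaf, which binds Pcna, was at 2.67 against 0.295 (3.18, 3.01 to 3.35). The others were Fignl1 (3.32), Cit (3.30), Sgo1 (3.11), Syce2 (3.10) and Rmi2 (3.07). The 10 lowest were Kdm5b, a histone demethylase, at 0.0802 against 0.254 (-1.67, -2.06 to -1.28), Tcp11l2 (-1.66), Rnf19b (-1.62), Gm26740 (-1.60), Letm2 (-1.53), Gm12840 (-1.44), Ddit3, a stress-induced transcription factor (-1.42), Socs3, a feedback inhibitor of cytokine signalling (-1.32), Gm30054 (-1.32) and Qpct (-1.32). In the depth window the 10 high genes lay between 2.82 and 3.90 and the 10 low genes between -1.82 and -0.46.

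Genes of ribosome biogenesis, many of them MYC targets, were higher: 22 of 27 were at least 1.5-fold higher, with a median of 0.93 (15 of 27 and 0.71 in the depth window). Srm, spermidine synthase, was at 0.777 against 0.199 (1.96, 1.74 to 2.19). Nolc1 and Nop58, nucleolar proteins, were at 1.44 (1.26 to 1.63) and 1.42 (1.30 to 1.55), and Odc1, the first enzyme of polyamine synthesis, at 0.12 (0.01 to 0.23). The cytosolic ribosomal protein genes themselves summed to 3092 UMIs per 10000 in G1/S cells and 3136 in resting cells, with a median log2 ratio of -0.01. Glycolysis had 3 of 17 genes at least 1.5-fold higher and a median of 0.37, with Ldha, lactate dehydrogenase, at 0.77 (0.72 to 0.81). Its median was 0.02 in the depth window, where none passed 1.5-fold. Cholesterol and lipid synthesis had 6 of 14 higher (median 0.42, and 0.45 with 6 of 12 in the depth window), led by Idi1 at 1.38 (1.04 to 1.73) and Cyp51 at 1.12 (0.79 to 1.46), while the regulators Srebf1 and Srebf2 were at 0.04 (-0.27 to 0.34) and -0.06 (-0.32 to 0.19).

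On the lower side stood genes of quiescence and memory: of 14 measured, 12 were at least 1.5-fold lower and none higher, with a median of -0.84. In the depth window the median was -0.44 and 5 of 14 were at least 1.5-fold lower, all 14 below 0. Txnip, a brake on glucose uptake, was at a level of 0.847 against 2.07 (-1.29, -1.41 to -1.17) and at -0.82 (-1.05 to -0.60) in the depth window. Klf2, which sustains quiescence and lymphoid homing, was at 0.922 against 1.82 (-0.98, -1.10 to -0.86) and at -0.51 (-0.73 to -0.30). Tcf7, the factor of stem-like CD8 cells, was at 0.163 against 0.326 (-1.0, -1.29 to -0.72) and at -1.16 (-1.78 to -0.56), and Il7r, the interleukin-7 receptor, at -0.99 (-1.17 to -0.82) and -0.70 (-1.07 to -0.34). The antiproliferative genes Btg1 and Btg2 were at -0.84 (-0.89 to -0.80) and -0.91 (-0.99 to -0.83), and at -0.51 and -0.65 in the depth window. Satb1 was nearest to 0 at -0.21 (-0.39 to -0.03). Without scaling to cell totals the list's median was 0.12, that is, below the shift of the median gene and above 0.

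AP-1 and immediate early genes had 8 of 14 at least 1.5-fold lower and a median of -0.60 (3 of 14 and -0.33 in the depth window, and 0.36 unscaled). Jun was at 3.13 against 6.65 (-1.09, -1.15 to -1.02) and Fos at 0.922 against 1.81 (-0.97, -1.09 to -0.85), and in the depth window they were at -0.65 (-0.77 to -0.54) and -0.64 (-0.86 to -0.42). Jund, at -0.25, and Ier2, at -0.26, differed less. Of chemokine receptors and integrins, 4 of 11 were at least 1.5-fold lower, with Cxcr3 at 0.465 against 1.14 (-1.29, -1.45 to -1.13) and Ccr2 at -1.17 (-1.34 to -0.99). In the depth window Ccr2 was at -0.88 (-1.27 to -0.50), where Cxcr3 was at -0.15 (-0.48 to 0.18). Genes of activation and effector fate had 6 of 23 at least 1.5-fold lower and none higher (median -0.31), with Ly6c2, a surface protein of memory and effector cells, lowest at 2.83 against 5.74 (-1.02, -1.09 to -0.95). NK receptors had 1 of 12 lower (median -0.29), p53 targets 1 of 7 (median -0.33), T cell identity genes none of 11 (median -0.39) and mitochondrially encoded genes none of 13 (median 0.19).

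Interferon-stimulated genes gave a result that turned in the window of 8000 to 12000 UMIs, which was chosen after seeing the data. Over all cells 19 of 23 were at least 1.5-fold lower, with a median of -0.80. Slfn5 was at 0.0985 against 0.372 (-1.92, -2.27 to -1.58), Ifit3 at 0.448 against 1.30 (-1.53, -1.70 to -1.37) and Irf7, the factor that amplifies the response, at 0.575 against 1.13 (-0.98, -1.13 to -0.83). In cells of 8000 to 12000 UMIs none of 22 was lower by that much, 1 was higher and the median was 0.18. There Slfn5 was at 0.00 (-0.69 to 0.69), Ifit3 at 0.21 (-0.08 to 0.50), Irf7 at 0.23 (-0.05 to 0.52) and Isg15, a ubiquitin-like modifier, at 0.51 (0.34 to 0.69). Unscaled, the median was 0.16. In the window of 8000 to 12000 UMIs 17 of the 22 genes lay above 0. The list's median stayed below 0 in cells thinned to 4000 UMIs. It also did so in cells of 5000 to 15000 UMIs, where G1/S and resting cells had median depths of 10854 and 6881.

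Inhibitory receptors were close to the level of resting cells. Of 16 genes of the exhaustion list none was at least 1.5-fold higher and 1 lower, with a median of -0.12 (-0.32 in the depth window, with none called). Pdcd1, which encodes PD-1, was at 3.15 against 3.43 (-0.12, -0.19 to -0.05) and at -0.31 (-0.44 to -0.18) in the depth window. Havcr2, which encodes TIM-3, was at 0.836 against 0.813 (0.04, -0.10 to 0.18), and at -0.33 (-0.59 to -0.08). Tox, a factor of exhausted cells, was at 1.82 against 1.59 (0.20, 0.10 to 0.30) and at 0.36 (0.17 to 0.54). Cd101, a marker of late exhausted cells, was at 0.12 against 0.232 (-0.95, -1.29 to -0.62), and at -0.35 (-0.97 to 0.26).

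Cytotoxic and cytokine genes went both ways, with 2 of 18 at least 1.5-fold higher, 4 lower and a median of 0.01 (in the depth window none of 17 was higher, 5 were lower and the median was -0.24). Ccl5, a chemokine of memory and effector CD8 cells, was at 37.0 against 80.0 (-1.11, -1.13 to -1.09) and at -0.75 (-0.79 to -0.72) in the depth window. It was lower at each step along the gradient of G1/S genes, at 78.1 with none 62.1 with 2, 47.8 with 3 and 24.8 with all 6. Gzmb, granzyme B, was at 18.2 against 17.4 (0.06, 0.03 to 0.09) and at -0.30 (-0.36 to -0.25). Prf1, perforin, was at 6.15 against 4.43 (0.47, 0.42 to 0.53) over all cells and at -0.60 (-0.71 to -0.49) in the depth window, so its sign turned. The 2 higher genes were Gzmc, at 2.07 (1.96 to 2.18), and Gzmd, at 1.01 (0.89 to 1.13), and both rested on few cells. The 7 G1/S cells with the most UMIs of the gene held 83.5% of all Gzmc UMIs and 87.5% of all Gzmd UMIs, and in the depth window these genes were at -1.33 (-1.69 to -0.98) and -0.69 (-1.16 to -0.24). For Ifng, at 0.56 (0.49 to 0.62) and -0.17 (-0.29 to -0.05), the top 7 cells held 45.7%. Granzymes c to f are close copies of each other, and their counts could be split.

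**Figure D4:**
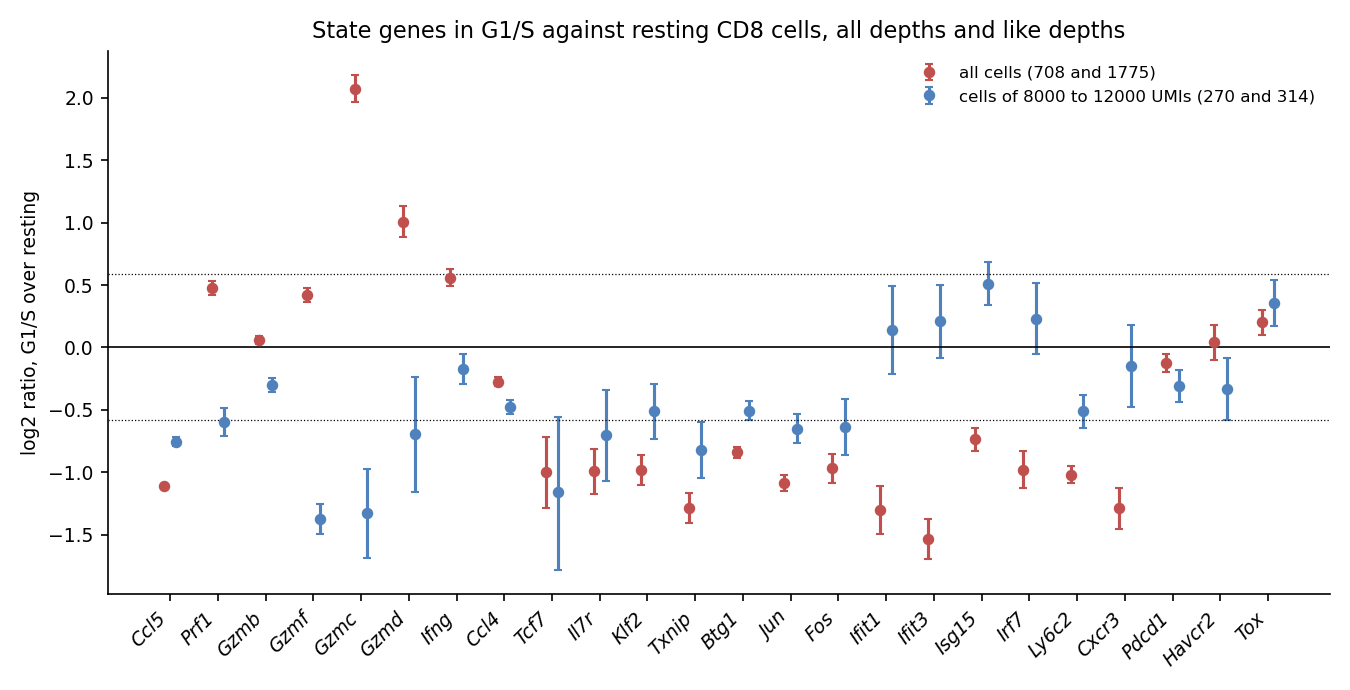
Log2 ratio of levels, G1/S over resting CD8 cells, with 95% counting intervals, for 24 effector, quiescence, interferon and receptor genes, over all cells (red) and in cells of 8000 to 12000 UMIs (blue); dotted lines mark 1.5-fold. Ccl5, Tcf7, Il7r, Klf2, Txnip, Btg1, Jun and Fos lie below 0 in both. In contrast, Prf1, Gzmb, Gzmf, Gzmc, Gzmd, Ifng, Ifit1, Ifit3, Isg15, Irf7 and Havcr2 lie on opposite sides of 0 in the 2 sets.

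State genes were compared in cells thinned to 4000 UMIs, which kept the 699 G1/S, 1533 resting and 1164 mitotic cells of at least that depth, of 708, 1775 and 1180. There, 5.58% of G1/S cells had Tcf7 without Havcr2 (95% exact interval 4.00% to 7.55%), against 8.48% of resting cells (7.13% to 9.99%) and 5.15% of mitotic cells. Havcr2 without Tcf7 was found in 24.0% (20.9% to 27.4%), 22.8% (20.8% to 25%) and 24.7%, and both together in 5 of 699 G1/S cells. Neither gene was found in 69.7% of G1/S cells and 68.2% of resting cells. Gzmk, a granzyme of effector-memory cells, had a UMI in 25.9% of thinned G1/S cells, 36.2% of resting cells and 37.5% of mitotic cells and 5.63% of Cd4-positive cells of the same library. Unthinned, these shares were 47.3%, 46.0%, 65.8% and 10.1%, at median depths of 11736.5, 6017, 14620.5 and 5362 UMIs. Ly6c2, of memory-like effector cells, had a UMI in 30.5% of thinned G1/S cells, 44.1% of resting, 25.2% of mitotic and 18.0% of Cd4-positive cells (44.8%, 52.3%, 42.8% and 23.9% unthinned). Read the other way, with the gate applied to thinned cells, 5.39% of CD8 cells with Ly6c2 were in G1/S (4.57% to 6.32%) and 8.42% of those without (7.60% to 9.30%), and for Gzmk the shares were 5.64% (4.74% to 6.66%) and 8.07% (7.29% to 8.89%). For Pdcd1 they were 7.11% (6.35% to 7.92%) and 7.49% (6.51% to 8.57%). For all 10 state genes read this way the share in G1/S was lower among cells with a UMI of the gene than among those without, so the direction is not particular to Ly6c2 or Gzmk.

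T cell receptor variable genes, which mark clones loosely, differed in the makeup of their UMIs. Trbv2 held 133 of 299 Trbv UMIs in the G1/S cells (44.5%, 38.8% to 50.3%), 29.6% in resting cells (25.2% to 34.3%) and 45.4% in mitotic cells (41.2% to 49.7%). Its 133 UMIs lay in 87 G1/S cells, and its 122 UMIs in the resting set lay in 93 cells, of which 18 held 34.4%. These intervals count UMIs as independent, which UMIs of the same cell are not, so they are too narrow for a comparison of cells. Trbv13-1 held 10.0% and 17.7% of Trbv UMIs in G1/S and resting cells. The table holds few variable genes and few UMIs of each, so clones could not be followed.

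Mitotic cells, the nearest set in the cycle, were taken as the 1180 CD8-gated cells with at least 2 of Ccnb1, Ccnb2 and Cdc20 (median 14620.5 UMIs). They were chosen whatever their G1/S genes, and 636 of the 1180 also had UMIs of at least 3 G1/S genes. Against all 1180 mitotic cells, 283 of 7745 genes (3.65%) were at least 1.5-fold higher in G1/S cells and 561 (7.24%) lower. Replication lists had medians of 0.09 for licensing (4 of 22 genes at least 1.5-fold higher and 2 lower), 0.13 for the fork (2 of 35 higher and 3 lower) and 0.33 for nucleotide synthesis (7 of 23 higher and 3 lower). The part of the 636 cells with both kinds of genes in these medians was not tested. Histones were far lower in G1/S cells, 38 of 39 by at least 1.5-fold and with a median of -2.34. All 50 G2/M genes were at least 1.5-fold lower, with a median of -2.88, among them Top2a at 1.85 against 8.98 (-2.28), Cdk1 at -2.23, Birc5, survivin, at -3.76 and Cenpf, a kinetochore protein, at -5.07. Since the sets were chosen on mitotic genes, that direction follows from the choice of cells and is a description.

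Within the replication lists, genes parted between the sets. Of the rule's own genes, given as a description, Ung, a uracil glycosylase, was at 0.667 in G1/S cells and 0.0940 in mitotic cells, and Mcm5 at 2.15 and 1.29. Cdca7 was at 0.638 against 0.194 in mitotic cells (1.72), Mcm2 at 1.2 against 0.514 (1.22) and Atic at 1.07, all higher in G1/S cells. Rrm2 at 0.795 against 2.64 (-1.73), Asf1b, a histone chaperone, at -1.42, Fbxo5, an inhibitor of the anaphase-promoting complex, at -2.10, and Dbf4 at -1.74 were higher in mitotic cells. Ribosome biogenesis was higher in G1/S cells, with 14 of 27 genes at least 1.5-fold higher, none lower and a median of 0.68, and Srm was at 0.777 against 0.258 (1.59). Ccnd2 was at 1.61 against 0.76 (1.09), higher in G1/S than in mitotic cells. It was lower than in resting cells over all cells, but not in the depth window, as given above. Cdkn2c and Cdkn2d were at -1.82 and -2.22 against mitotic cells. Quiescence, AP-1 and interferon genes had medians of -0.05, 0.11 and 0.04. Outside the lists the highest were Pus7, a pseudouridine synthase (1.79), Cdca7, Cd3eap (1.52), Mettl1, a tRNA methyltransferase (1.51), and Ccl1 (1.43), and the lowest were Arhgap19 (-5.38), Pif1 (-5.26), Prr11 (-5.21), Kif14 (-4.72) and Gas2l3 (-4.68). Of the 430 Ccl1 UMIs of the G1/S cells, 66.5% lay in 7 cells, and 87 of the cells had any.

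In cells of 8000 to 12000 UMIs (270 and 267 cells, medians 10366.5 and 10117) 503 genes (6.97%) were at least 1.5-fold higher and 923 (12.8%) lower, of 7221, which is 19.7% in either direction. Licensing had a median of 0.27 (6 of 21 higher, 4 lower), the fork 0.31 (8 of 35 higher, 3 lower) and nucleotide synthesis 0.52 (10 of 22 higher, 2 lower). Histones kept a median of -2.31, G2/M genes one of -3.39, and ribosome biogenesis was at 0.88 with 18 of 27 higher. Ccnd2 was at 0.97 there and Cdkn2d at -2.59. Quiescence genes had a median of -0.39 in this window, with 2 of 15 at least 1.5-fold lower and none higher. AP-1 and interferon genes had medians of -0.004 and 0.07. Unscaled, the median gene was 0.35 lower in G1/S than in mitotic cells, and 62 genes were at least 1.5-fold higher and 1567 lower.

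The same gate was applied to the other libraries, whose CD8 cells are few. G1/S cells numbered 3 of 43 CD8-gated cells with vehicle (6.98%, 95% exact interval 1.46% to 19.1%), 9 of 103 with ATT-I (8.74%, 4.07% to 15.9%) and 12 of 110 with both agents (10.9%, 5.77% to 18.3%), beside 9.64% with anti-PD-1. With cells thinned to 4000 UMIs before the gate, and shallower cells left out (1 with vehicle, 10 with ATT-I, 1 with both agents and 481 with anti-PD-1), the shares were 9.52% (2.66% to 22.6%), 7.53% (3.08% to 14.9%), 12.8% (7.20% to 20.6%) and 7.25% (6.65% to 7.89%) in the same order. Within each setting the intervals of the libraries overlap, and with 1 library per arm no difference between arms was tested. Between the settings, the anti-PD-1 interval moved from 8.97% to 10.3% down to 6.65% to 7.89% with thinning. Median depth of the CD8-gated cells was 24445, 9027 and 27929 UMIs in the vehicle, ATT-I and combination libraries. Resting cells numbered 0, 26 and 3 there, so the comparison was read in the ATT-I library.

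**Figure D5:**
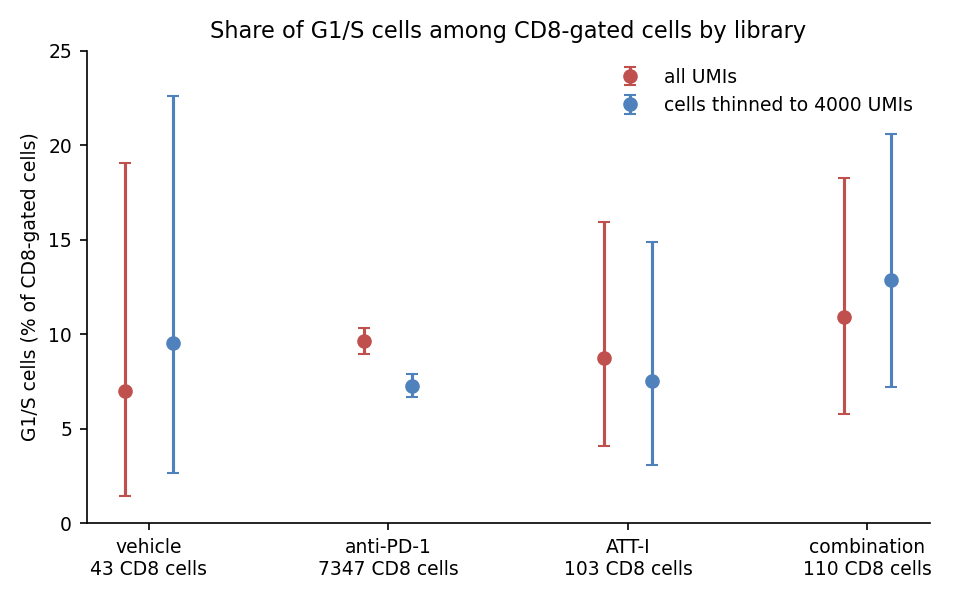
Share of G1/S cells among CD8-gated cells (percent) in each library with 95% Clopper-Pearson intervals, from all UMIs (red) and with cells thinned to 4000 UMIs before the gate, shallower cells left out (blue). Points lie between 6.98% and 12.8%, and within each setting the intervals of all libraries overlap.

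In the ATT-I library, 9 G1/S cells (median 15227 UMIs) against 26 resting cells (5399.5) gave summed log2 ratios of 1.99 (1.5 to 2.5) for licensing, 2.22 (1.87 to 2.58) for fork and 1.59 (1.23 to 1.96) for nucleotide synthesis genes. The summed values in the anti-PD-1 library were 1.87, 1.90 and 1.69. Quiescence genes were at -1.22 (-1.41 to -1.04) and -0.81 in the same order, and ribosome biogenesis at 0.69 (0.54 to 0.83) and 0.79. Histones took opposite signs, at -0.66 (-0.99 to -0.33) with ATT-I and 0.42 with anti-PD-1. Hist1h1b and Hist1h2ap, named above, were at 0.89 (-0.72 to 2.63) and 0.15 (-1.13 to 1.43) with ATT-I. The exhaustion list also took opposite signs, at 0.65 (0.35 to 0.94) with ATT-I and -0.11 (-0.13 to -0.08) with anti-PD-1. The sums of the cytotoxic list were at -0.85 (-0.97 to -0.72) and -0.38, and Ccl5 was a large part of them. With ATT-I the list summed to 58.8 against 105.9, with Ccl5 at 16.4 against 49.9. With anti-PD-1 it summed to 147 against 192, Ccl5 was lower as given above, and the list's median was 0.01. Mcm2 had 19 UMIs against 2, a level of 1.44 against 0.137 (3.40, 1.35 to 6.54), and Cdkn1b at 0.38 against 1.71 (-2.17, -3.91 to -0.76) in the ATT-I cells. The difference between the libraries was not tested.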

How the data were processed

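RNA of single cells from 4 libraries was measured with 10x droplets. Per the submitters' processing notes the authors used Cell Ranger and Seurat on mm10, with versions not given in the sources used here. The deposited table of 13518 genes and 13213 cells holds natural log values, which the authors scaled to 10000 UMIs per cell; a constant for each library, 0.249 in the anti-PD-1 library, had been taken off and negative values set to 0, as read from the values. Whole UMIs were recovered for each cell, and all values came out whole within 0.02. In 3 of the 708 G1/S cells a gene with 1 UMI reads 0. The anti-PD-1 library has a median of 7148 UMIs per cell.

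Levels are summed UMIs per 10000, and log2 ratios carry exact conditional binomial 95% intervals. With 1 library per arm no test was run. Genes with a UMI in at least 10% of cells of either set were compared, a gene was called at 1.5-fold or more, and a count of 0 was set to a floor of 3. Shares were also computed after thinning cells to 4000 UMIs (seed 1), leaving out shallower cells. No doublet caller was run. An alternative left out the deepest 5% of cells and cells with a marker of another lineage. It kept 399 of the 708 G1/S cells and 1136 of the 1775 resting cells. Named genes outside the lists were the 10 highest and 10 lowest ratios among genes of at least 100 UMIs, and 5 and 5 against mitotic cells; within lists, genes at the ends and well-known members. The cells, lists and markers were chosen with earlier results of these data known. Promoters came from RefSeq, GRCm38.p6. Scripts used Python 3.11.15, numpy 2.4.6, scipy 1.17.1 and matplotlib 3.10.9 and were tested on simulated data.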

Additional observations from a re-analysis of the deposited data

How the results depend on the processing

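Against resting cells the 944 higher and 492 lower genes were counted at 1.5-fold. Unscaled by cell totals they were 5920 and 5, with no filter on low genes 2276 and 2202, with genes in at least 25% of cells 580 and 225, in cells thinned to 4000 UMIs 557 and 319, with cells of at least 2 of the 6 G1/S genes 587 and 168, and at 2-fold 403 and 65. In cells of 5000 to 15000 UMIs 284 were lower. Against mitotic cells the 283 higher and 561 lower genes were 62 and 1567 unscaled, 113 and 365 with the 25% filter, and 503 and 923 in cells of 8000 to 12000 UMIs. The 8000 to 12000 window, leaving out the 1% of cells highest in a gene, and leaving out cells with Mki67 were chosen after seeing the data. The share of G1/S cells in the anti-PD-1 library was 7.25% after thinning, 5.68% at 4 of the 6 genes, 16.9% at 2 and 23.7% with mitotic genes at any value, a setting that gave 74.4% for vehicle, 35.9% for ATT-I and 79.1% for the combination. Filters change how many genes are compared; for the other settings the cause was not tested.

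Values at least 1.5-fold from resting cells that took the other sign are given on the log2 scale. Unscaled, the medians of the quiescence, AP-1 and interferon lists were 0.12, 0.36 and 0.16, and the genes were Cdkn1b 0.13, Hist1h1c 0.27, Cd101 0.012, Gzmk 0.27, Fasl 0.33, Tnf 0.0071, Foxo1 0.21, Foxp1 0.14, Btg1 0.12, Btg2 0.050, Tob1 0.17, Slfn2 0.21, Tsc22d3 0.12, Cd69 0.21, Icos 0.33, Egr1 0.24, Tbx21 0.24, Ly6a 0.31, Junb 0.22, Dusp1 0.14, Dusp2 0.38, Zfp36 0.35, Hspa1a 0.11, Hspa1b 0.15, Itgb7 0.35, Isg15 0.22, Isg20 0.13, Ifit2 0.20, Ifi203 0.30, Ifi213 0.27, Ifih1 0.012, Ddx58 0.31, Oas3 0.013, Usp18 0.16, Xaf1 0.25, Zbp1 0.29, Klrk1 0.25 and Ccl1 0.064. In cells of 8000 to 12000 UMIs the interferon median was 0.18 and the genes were Gzmc -1.33, Gzmd -0.69, Ly6a 0.17, Itgb7 0.16, Isg15 0.51, Ifit1 0.14, Ifit2 0.49, Ifit3 0.21, Ifit3b 1.08, Ifi203 0.025, Ifi213 0.29, Irf7 0.23, Rsad2 0.54, Rtp4 0.032, Usp18 0.33, Xaf1 0.40, Zbp1 0.23, Slfn5 0.0013 and Trp53inp1 0.21. In cells of 5000 to 15000 UMIs they were Gzmc -0.34 and Gzmd -1.69. Gzmd was -0.18 without the deepest 5% and cells with a marker of another lineage, and -0.68 without cells in which 1 UMI reads 0. Without the 1% of cells highest in the gene Ccl1 was 0.23. In G1/S cells without Mki67 they were Hist1h2ap -0.028, Ccna2 -0.14, Birc5 -0.24, Cenpf -0.10, Nusap1 -0.064 and Cdca3 -0.41. Against mitotic cells, Gzmc and Gzmd were -0.19 and -0.42 in cells of 5000 to 15000 UMIs, -0.37 and -0.92 without the 1% of cells highest in the gene, and -0.81 and -0.86 in cells of 8000 to 12000 UMIs, where Slc16a1 was -0.15. No paired analysis was possible because each arm is 1 library, which also leaves no library to leave out. The difference of mean deposited values has no fold and gave no count.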
